A study of Saccharomyces cerevisiae with 34 samples.

Results

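The genes described here encode the nuclear subunits of the energy-yielding machinery of Saccharomyces cerevisiae mitochondria: the tricarboxylic acid (TCA) cycle, respiratory complexes II to IV with cytochrome c, and ATP synthase. They were listed by systematic name for these functions. Of 45 genes so listed, 41 had a row among the 5368 S. cerevisiae open reading frames of the count table, and COX4, COX6, ATP2 and ATP14 were not analysed here. The 41 were 11 TCA cycle enzymes, 4 subunits of complex II, 10 of complex III and cytochrome c, 6 of complex IV and 10 of ATP synthase.

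In the TCA cycle, mitochondrial enzymes oxidise acetyl groups to carbon dioxide and load electrons onto carriers. Complex II, itself a cycle enzyme, passes electrons to ubiquinone, complex III passes them to cytochrome c, and complex IV passes them to oxygen, while ATP synthase uses the resulting proton gradient. Budding yeast has no proton-pumping complex I, and on glucose, the sugar in this medium, transcription of many of these genes is held low and is raised by the Hap2/3/4/5 complex, which binds CCAAT. When respiration fails, the Rtg1 and Rtg3 factors keep CIT1, ACO1, IDH1 and IDH2, the genes of the first cycle steps, expressed.

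The cultures were haploid BY4741 yeast grown in glucose medium lacking histidine. KIN28, the gene altered in the mutant strains, encodes the TFIIH kinase that phosphorylates the tail of RNA polymerase II. Strain kin28is received CMK, an irreversible inhibitor, the reversible inhibitor 1-NAPP-1, or the solvent DMSO, strain kin28as received 1-NAPP-1 or DMSO, and wild type (WT) received CMK, 1-NAPP-1 or DMSO. Exposure lasted 1 h. Nascent RNA, labelled over the last 6 min with 5 mM 4-thiouracil (4tU) and pulled down, gave 4 kin28is CMK, 3 kin28is 1-NAPP-1 and 3 kin28is DMSO libraries. Total RNA gave 2 libraries for each kin28is treatment, each WT treatment had 2 libraries per RNA fraction, and each kin28as treatment had 1. A WT DMSO culture that received no 4tU gave 1 library of each fraction. Replicate 1 was the 2 µM set and all other replicates the 5 µM set, so dose and replicate set cannot be told apart. Schizosaccharomyces pombe cells, also labelled, were mixed in before lysis. The labels state neither separate cultures nor how the alleles were made, and the spread behind each p-value is that among these libraries and may be technical.

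Libraries held 517887 to 15568445 reads. The nascent 2 µM libraries carried 4.71 to 45.8 S. cerevisiae reads per S. pombe read and the nascent 5 µM libraries 0.277 to 4.15, so the sets stood apart and tests of nascent RNA used the 5 µM libraries. KIN28 mRNA ranged from 31.4 to 96.5 RPKM over the 34 libraries. A level per S. pombe RNA, called a level below, is the count per 1000000 S. pombe reads of the library after TMM scaling on S. pombe genes. It cannot tell fewer cells from less RNA per cell. A relative value instead compares a gene with the other S. cerevisiae genes of its library, and RPKM is reads per kilobase of coding sequence per 1000000 S. cerevisiae reads. A gene was called changed at an adjusted p of at most 0.05 (edgeR quasi-likelihood test, Benjamini-Hochberg over all S. cerevisiae genes tested). Shares of genes called come from this test. They do not apply to counts by unadjusted p, by DESeq2, with other settings or without single libraries. In bulk RNA of this kind the members' mRNA is measured, not respiration.

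In WT DMSO total RNA most of the genes lay above the typical yeast gene. The median of the 41 was 230.1 RPKM, against 60.3 RPKM over 5239 open reading frames. COX9 (YDL067C), a small subunit of complex IV, was highest with 1225 and 1430 RPKM in its 2 libraries. ATP15 (YPL271W), the epsilon subunit in the central stalk of ATP synthase, had 719 and 1504 RPKM, and ATP18 (YML081C-A), a small membrane subunit, had 952 and 889 RPKM. Those 3 genes led the order, and the ATP15 libraries differed from each other by more than the gaps between the 3 means. ATP synthase and complex IV had medians of 435 and 421 RPKM. The TCA cycle had a median of 169 RPKM, with LPD1 (dihydrolipoamide dehydrogenase, shared with pyruvate dehydrogenase) at 285 RPKM and IDH1 at 60.2 RPKM at its ends. Complex II was lowest as a group at 72.1 RPKM, although SDH3, its cytochrome b subunit, reached 233 RPKM. Within complex III, QCR7 stood at 691 RPKM and the catalytic CYT1 (cytochrome c1) at 86.9 RPKM. QCR9 was at 11.6 RPKM, and it had 0 to 37 reads per library with 3 or fewer in 6 of 34 libraries, so no fold change is given for it.

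**Figure D1:**
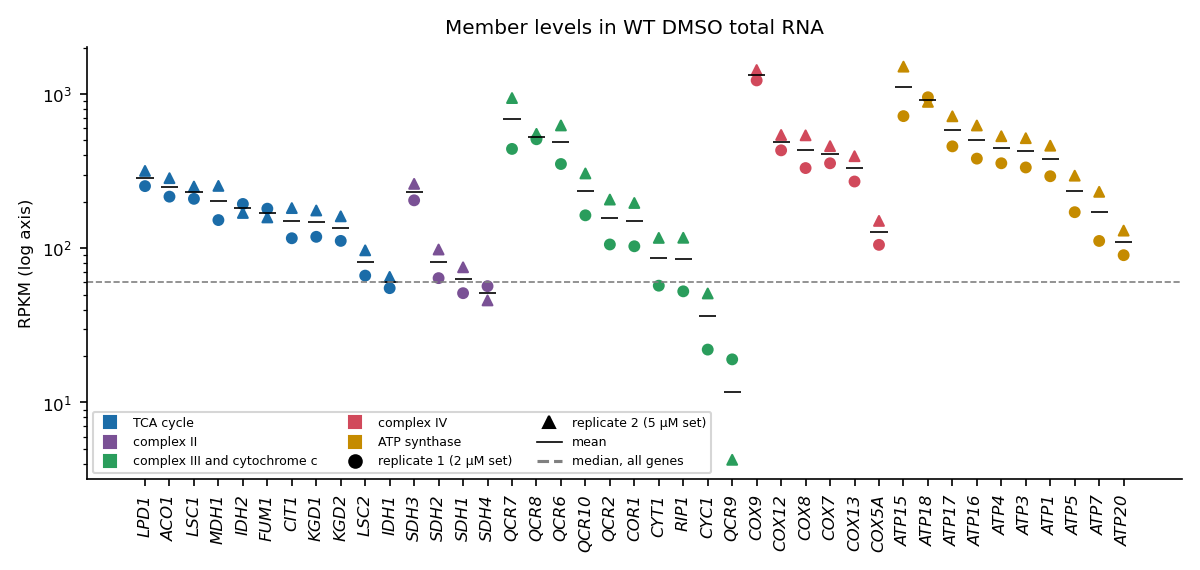
RPKM (log axis) of the 41 genes in WT DMSO total RNA, ordered by role and level, with each of 2 libraries as a point, the mean as a bar and the median of all genes as a dashed line. COX9, ATP15 and ATP18 sit highest, and complex II lies mostly near the dashed line at 60.3 RPKM.

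The stretches of 150 bases that lie 250 to 101 bases before the start codon are printed for 4 genes described below. They are from the R64 (sacCer3) genome, gene strand, 5′ to 3′. Capitals mark CCAAT or its reverse complement ATTGG, and TATAAA or its reverse complement TTTATA. ACO1 (aconitase, YLR304C, chrXII:737649-737798) and CIT1 (citrate synthase, YNR001C, chrXIV:631162-631311) are shown because their nascent shares looked high in some libraries. CIT1 was picked after its values were seen and was not called in relative nascent RNA. FUM1, with a larger relative nascent change than CIT1, is not printed. ATP7 (a stator subunit of ATP synthase, YKL016C, chrXI:408090-408239) and LPD1 (YFL018C, chrVI:103228-103377) are shown as examples of members called lower after CMK in nascent RNA per S. pombe RNA and in total RNA on the relative scale. Other members met that rule and are not printed. Among them IDH2 and QCR7 held CCAAT in the wider window given below, and KGD2, LSC1 and COR1 did not. All 4 printed genes lie on the minus strand.
ACO1: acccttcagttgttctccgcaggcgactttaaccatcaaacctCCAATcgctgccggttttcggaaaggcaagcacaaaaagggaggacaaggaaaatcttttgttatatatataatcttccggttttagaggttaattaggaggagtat
CIT1: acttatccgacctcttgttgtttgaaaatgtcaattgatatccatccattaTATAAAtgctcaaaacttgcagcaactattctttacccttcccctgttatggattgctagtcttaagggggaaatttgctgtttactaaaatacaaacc
ATP7: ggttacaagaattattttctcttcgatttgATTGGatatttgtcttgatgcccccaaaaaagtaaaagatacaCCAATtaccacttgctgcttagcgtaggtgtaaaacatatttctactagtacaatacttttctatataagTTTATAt
LPD1: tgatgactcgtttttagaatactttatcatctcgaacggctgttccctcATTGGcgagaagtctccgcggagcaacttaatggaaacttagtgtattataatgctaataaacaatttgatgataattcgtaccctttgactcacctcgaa
CCAAT stood once before ACO1, 2 times before ATP7 and once before LPD1 on one strand or the other, and these letters are not in the CIT1 window. In the wider window from 250 bases before to 50 bases after the start codon, 32 of the 41 genes (78.0%) held CCAAT on either strand, against 43.3% of 6002 nuclear protein-coding genes. The share was 6 of 6 in complex IV, 4 of 4 in complex II, 9 of 10 in ATP synthase, 7 of 10 in complex III and cytochrome c, and 6 of 11 in the TCA cycle. The 9 without it were CIT1, KGD1, KGD2, LSC1, LSC2, COR1, CYT1, CYC1 and ATP1. TATAAA on either strand stood before 18 of 41 genes (43.9%), against 45.2% of all such genes. A match of this kind describes the letters and not a bound site.

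After 5 µM CMK, nascent levels of these genes, with no background taken off, fell in kin28is cells by about as much as nascent levels in general. Of 41 genes, 29 were called lower and 0 higher relative to DMSO, and 71.4% of the 5217 genes tested were called lower and 0.249% higher. The median log2 change was -1.69, a 3.23-fold fall, against -1.68 over all genes tested. The fall was called for 6 of 6 complex IV genes, 8 of 10 ATP synthase genes, 7 of 10 in complex III and cytochrome c, 6 of 11 in the TCA cycle and 2 of 4 in complex II.

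CYT1 (YOR065W), which carries electrons to cytochrome c, had the largest fall. Its level was 21.0, 21.3 and 17.0 in the 3 CMK libraries, against 120.4 and 171 in the DMSO libraries, and the groups did not overlap. The fitted log2 change was -2.89 ± 0.62 (SE; adjusted p = 8.96e-05). ATP7 had levels of 12.95, 32.0 and 11.1 with CMK, against 95.6 and 132 with DMSO (log2 change -2.64 ± 0.63, adjusted p = 0.000365). KGD1 (YIL125W), the first subunit of the alpha-ketoglutarate dehydrogenase that LPD1 completes, had 138, 115 and 51.1 with CMK, against 453 and 547 with DMSO (log2 change -2.32 ± 0.54, adjusted p = 0.00026). In each of these genes every CMK library was below every DMSO library.

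Other complex III genes fell with CYT1. QCR7 had levels of 46.9, 81.3 and 35.65 with CMK, against 207 and 293 with DMSO (log2 change -2.21 ± 0.57, adjusted p = 0.000817). COR1, a core subunit, changed by -2.25 ± 0.58 and QCR6 by -2.13 ± 0.58. In complex IV the range was narrow, with log2 changes of -2.04 (COX7) to -1.46 (COX13). COX9 had levels of 125, 76.0 and 38.4 with CMK, against 181 and 275 with DMSO (log2 change -1.54 ± 0.57, adjusted p = 0.014). COX8, with the smallest p of its complex, had 19.4, 42.65 and 19.8 with CMK, against 85.2 and 124.9 with DMSO (log2 change -1.96 ± 0.63, adjusted p = 0.00518). The groups of both genes did not overlap. SDH1 (YKL148C), the flavoprotein of complex II, had 46.9, 41.3 and 27.3 with CMK, against 123.5 and 142.5 with DMSO (log2 change -1.81 ± 0.59, adjusted p = 0.00584). SDH3 had 84.2, 66.65 and 29.7 with CMK, against 155 and 187 with DMSO (log2 change -1.53 ± 0.59, adjusted p = 0.01645).

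The smallest changes apart from QCR9 were those of ACO1, FUM1 (fumarase) and CYC1 (cytochrome c, log2 change -0.89 ± 1.08). ACO1 had levels of 565, 414.5 and 300.2 with CMK, against 439.9 and 805 with DMSO, and the groups overlapped (log2 change -0.55 ± 0.53, adjusted p = 0.33). FUM1 had 95.5, 77.3 and 48.7 with CMK, against 104 and 145 with DMSO (log2 change -0.77 ± 0.59, adjusted p = 0.223). MDH1 (malate dehydrogenase, log2 change -0.98 ± 0.57) and CIT1 (-0.99 ± 0.55) were not called either, nor were LSC2, SDH2, SDH4, QCR2, CYC1, QCR9, ATP15 and ATP20. IDH2 was called (log2 change -1.79 ± 0.57, adjusted p = 0.00501), as were LPD1 (-1.51 ± 0.57, adjusted p = 0.01415) and ATP18 (-1.69 ± 0.65, adjusted p = 0.0171). Scaling to S. cerevisiae genes takes out the general fall, and 19 of the 41 genes were then below 0, where 2569 of 5207 genes tested were.

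The pull-down without 4tU sets how much of a low level is background. Over the 41 genes that library had a median of 57.4% of the mean CMK level, against 31.5% over all genes tested, and 25 of the 41 were at 50% or more. CYT1 stood at 27.0 without 4tU, above its mean of 19.8 with CMK, and COX7, ATP15 and ATP18 without 4tU were also above their CMK means. ACO1 and CIT1 stood at 17.7% and 12.9% of their CMK means. With the members' median level at 50.2, 45.3 and 24.95 in the CMK libraries and 26.6 without 4tU, the size of the falls has a floor, and the part of background in them was not tested. The count of lower genes was 5 without kin28is DMSO replicate 3 and 0 when the 2 µM libraries were included. The count was also smaller with a replicate block, as given below. These counts have no share over all genes beside them. At 2 µM the single CMK library was itself lower than its DMSO library, with a median log2 ratio of -1.23 (all genes -1.21). There 35 of 41 members were past 2-fold lower, where 4325 of 5196 genes were.

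**Figure D2:**
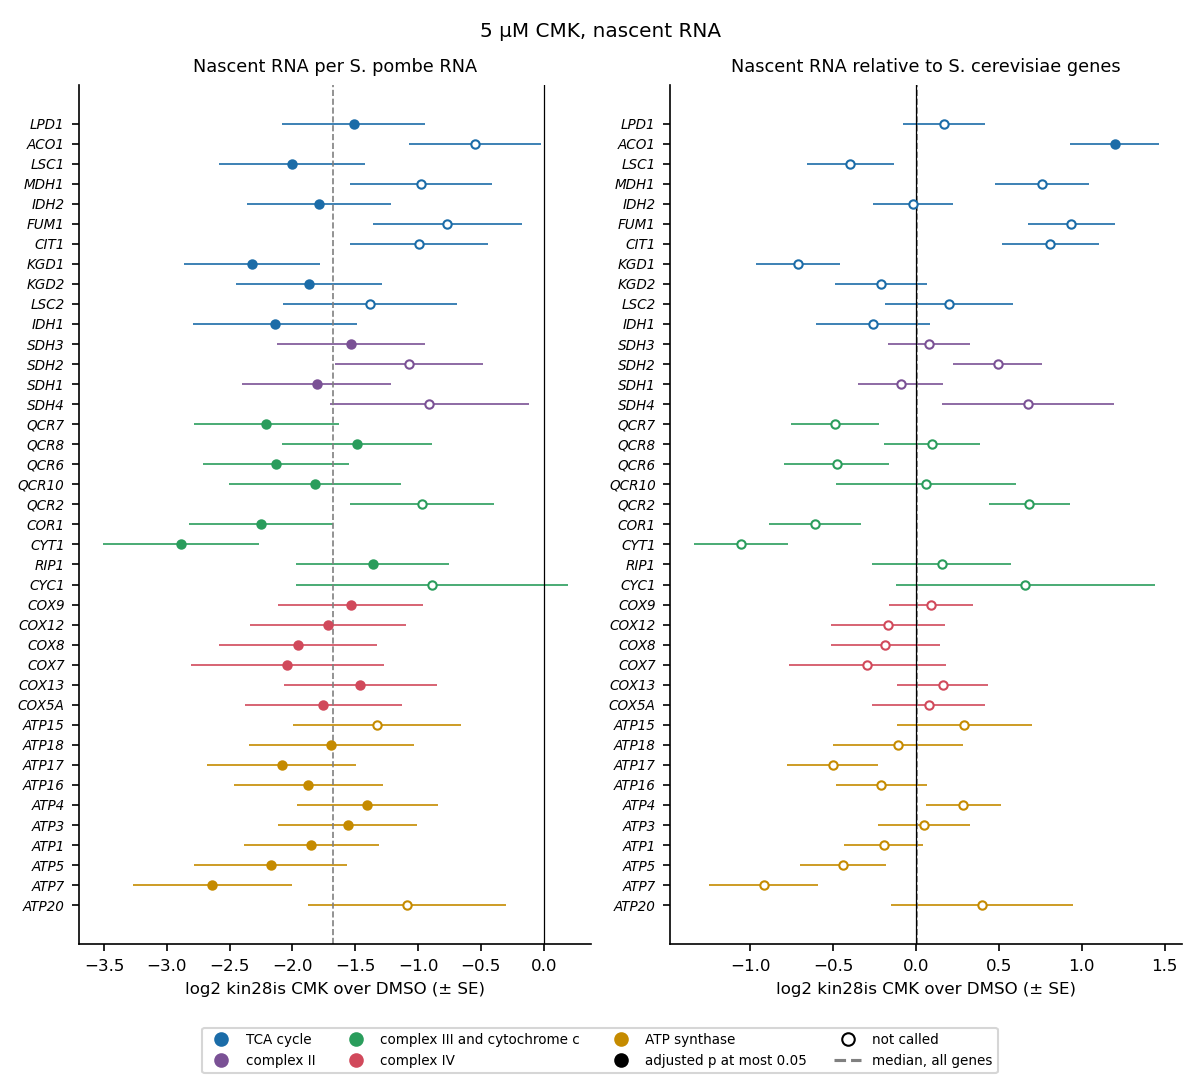
Log2 change of nascent RNA in kin28is cells, 5 µM CMK over DMSO, for 40 genes (QCR9 left out), per S. pombe RNA on the left and relative to other S. cerevisiae genes on the right, as fitted values with SE, filled where called, and a dashed line at the median of all genes tested. The left-hand points scatter around the line at -1.68, and ACO1 is the filled point on the right.

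Relative to other S. cerevisiae genes, nascent RNA of the typical member changed little. Of 41 genes, 1 (2.44%), ACO1, was called higher and 0 lower, against 2.4% of 5207 genes higher and 2.17% lower. A single call is thus near the share over all genes and is not a result about the set. The median log2 change was 0.06 against 0.01 over all genes. ACO1 had 462, 349.5 and 469 RPKM in the 5 µM CMK libraries, against 152 and 201 RPKM in the DMSO libraries and 150.3 and 188 RPKM with 5 µM 1-NAPP-1. Every CMK library was above every DMSO and 1-NAPP-1 library. The log2 change was 1.20 ± 0.27 against DMSO (adjusted p = 0.0272) and 1.24 against 1-NAPP-1 (adjusted p = 0.0366), where 0.922% of genes were called higher. The call against DMSO was lost without CMK replicate 3, DMSO replicate 2 or DMSO replicate 3 (adjusted p = 0.0567, 0.478 and 0.14), with log2 changes of 1.04 to 1.37 over all such omissions. With the 2 µM libraries included the ACO1 call was lost against DMSO (adjusted p = 0.540) and against 1-NAPP-1 (adjusted p = 0.954). FUM1 (0.94 ± 0.26, adjusted p = 0.0604), CIT1 (0.81 ± 0.29, adjusted p = 0.123), MDH1 (0.76 ± 0.28, adjusted p = 0.135) and QCR2 (0.68 ± 0.24, adjusted p = 0.119) had positive log2 values and were not called. At the other end CYT1 had a log2 change of -1.06 ± 0.28 (adjusted p = 0.0509), ATP7 of -0.92 ± 0.33 (adjusted p = 0.12) and KGD1 of -0.71 ± 0.25 (adjusted p = 0.118).

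CIT1 and ACO1, which catalyse the first and the second step of the cycle, also stood high in the single kin28is and kin28as libraries with 2 µM 1-NAPP-1, but not in the kin28is libraries with 5 µM 1-NAPP-1. These libraries were looked at after their values were seen, and each value is given without a test. CIT1 had 324.5 and 385 RPKM in nascent CMK replicates 2 and 3, 494.5 RPKM in replicate 4 and 323 RPKM in the 2 µM replicate 1, against 272.5, 185 and 254 RPKM in the kin28is DMSO replicates. With 2 µM 1-NAPP-1 kin28is cells had 515 RPKM of CIT1 and 486 RPKM of ACO1, against 272.5 and 215.5 RPKM with DMSO. At 5 µM 1-NAPP-1, CIT1 was at 136 and 232 RPKM and ACO1 at 150.3 and 188 RPKM, within the range of the DMSO libraries or below it. In kin28as cells nascent CIT1 stood at 351 RPKM with 1-NAPP-1, against 139 RPKM with DMSO, and nascent ACO1 at 391 RPKM against 162 RPKM. In kin28as total RNA, CIT1 was at 344 RPKM with 1-NAPP-1, against 128 RPKM with DMSO, and ACO1 at 427 RPKM against 206 RPKM. In WT cells nascent CIT1 remained between 112 and 138 RPKM and nascent ACO1 between 124 and 161 RPKM over all 6 labelled libraries, whichever agent was given.

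**Figure D3:**
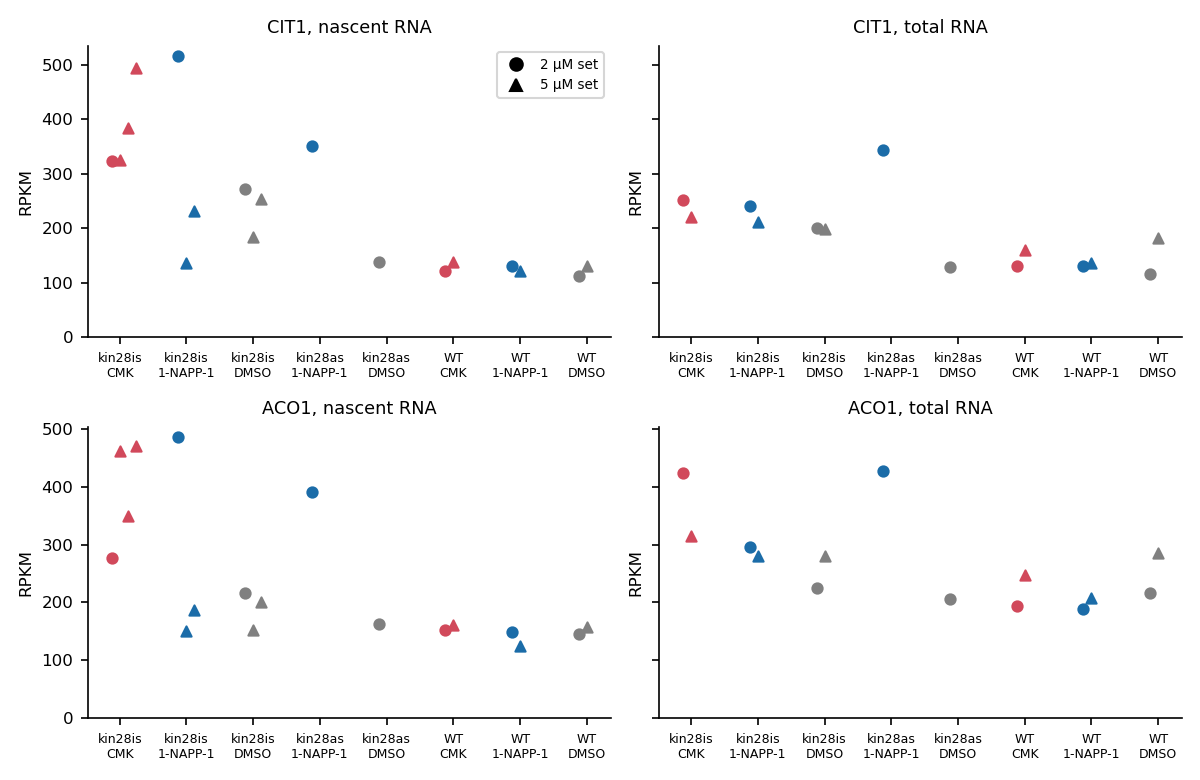
RPKM of CIT1 (top) and ACO1 (bottom) in nascent (left) and total RNA (right), one point per library, with circles for the 2 µM and triangles for the 5 µM set. Nascent ACO1 lies between 276 and 469 RPKM in the 4 kin28is CMK libraries and between 124 and 161 RPKM in the 6 labelled WT libraries.

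The single kin28as library pair bears on the whole set without a replicate check. Per S. pombe RNA, 38 of the 41 genes were past 2-fold lower in nascent RNA with 1-NAPP-1, where 96.4% of 5190 genes were lower and 0.0193% higher. The median log2 ratio was -1.84 against -1.94 over all genes. The same agent in WT cells of the same set gave 41 of 41 genes past 2-fold lower, where 93.8% of 5197 genes were lower and 0.0577% higher, with a median of -1.53, so this fall was not limited to the mutant strain. In kin28as cells ACO1 and CIT1 had log2 ratios of -0.79 and -0.72, and QCR9 was the other gene not past 2-fold. Relative to other genes, 3 were past 2-fold higher and 0 lower, where 2.56% and 4.93% of genes were: CIT1 (1.19), ACO1 (1.12) and QCR9, which had few reads. IDH1 had a relative log2 ratio of 0.79, SDH1 of complex II one of 0.71 and IDH2 one of 0.46. In kin28as total RNA, relative values were past 2-fold for CIT1 (1.09) upward and for COX7 (-1.16) downward, where 5.61% and 4.02% of genes were. ATP15 was at -0.96. Per S. pombe RNA, 2 genes were lower and 1 higher by that measure in total RNA, where 4.79% and 5.04% of genes were: COX7 (-1.20), ATP15 (-1.01) and CIT1 (1.04).

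Against 5 µM 1-NAPP-1, CMK gave lower nascent levels of 31 of 41 genes and higher levels of 0, where 74.5% of genes were called lower and 0.0192% higher. QCR6 had 72.8, 45.3 and 23.8 with CMK, against 534 and 164 with 1-NAPP-1 (log2 change -2.88 ± 0.60, adjusted p = 2.95e-05). KGD1 (-2.53 ± 0.55), ATP7 (-2.90 ± 0.66) and CYT1 (-2.83 ± 0.64) followed in order of p. The count was 9 without 1-NAPP-1 replicate 2, the shallowest library. At 2 µM, with 1 library each, the order was the reverse. The members' median level there was 1765 with CMK and 584.7 with 1-NAPP-1. Their median log2 ratios to DMSO were -1.23 and -2.89 in that order (all genes -1.21 and -2.81).

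No member was called in the other nascent comparisons at 5 µM with edgeR. Each WT group had 1 library there, so tests that involve WT took their spread from the kin28is groups. The lack of a call does not show that WT levels were unchanged. Counts by unadjusted p or DESeq2 in this paragraph have no matching share over all genes beside them and cannot be set against the edgeR shares. For 1-NAPP-1 against DMSO in kin28is cells the median log2 change was 0.21 against 0.14 over all genes, 0 members had an unadjusted p under 0.05, DESeq2 called 0, and 0.192% of genes were called higher. In WT cells at 5 µM, CMK against DMSO had a median of 0.19 (all genes 0.21), and 1-NAPP-1 against DMSO one of -0.02 (all genes 0.24). An unadjusted p under 0.05 was reached by 0 members with CMK and 1 with 1-NAPP-1, DESeq2 called 0 in both, and 0.0767% of genes were called lower in each. The CMK response in kin28is minus that in WT had a median of -1.86 (all genes -1.92), with 8 members at an unadjusted p under 0.05, 6 called by DESeq2 and 0.345% of genes called lower by edgeR. It was 2 by edgeR without kin28is CMK replicate 4. Between kin28is and WT cells under DMSO the median was -1.44 (all genes -1.26), with 17 members at an unadjusted p under 0.05, 2 called by DESeq2 and 0.441% of genes called lower by edgeR. That last count was 11 without kin28is CMK replicate 4.

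In total RNA, levels per S. pombe RNA gave 0 called members for CMK against DMSO in kin28is cells, where 2.05% of 5225 genes were called lower and 0.306% higher. The median log2 change was -0.41 against 0.17 over all genes, and 35 of 41 members were below 0, where 2130 of 5225 genes were. Of the members, 6 had an unadjusted p under 0.05, and DESeq2 called 3. Counts by unadjusted p, by DESeq2 or without single libraries in this paragraph have no share over all genes beside them. The lowest were ATP15 (-1.31 ± 0.43, adjusted p = 0.0747) and LPD1 (-0.97 ± 0.34, adjusted p = 0.106). Against 1-NAPP-1, LPD1 was called lower (log2 change -1.25 ± 0.32, adjusted p = 0.0127), where 4.0% of genes were, and DESeq2 called 7 members. The LPD1 call was lost without either CMK library or either 1-NAPP-1 library, with log2 changes of -1.43 to -1.08. The count was 7 without either kin28is DMSO library and 2 without either WT CMK library. Against DMSO it was 4 without kin28is DMSO replicate 2.

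On the relative scale calls in total RNA after CMK went in 1 direction for these genes and in both directions for yeast genes in general. In kin28is cells 20 of 41 genes were called lower and 0 higher relative to DMSO, where 20.4% of 5216 genes were called lower and 18.2% higher. The median log2 change was -0.61 against 0.02 over all genes, and 37 of 41 values were below 0, where 2557 of 5216 genes were. The count was 12 with no term for the replicate set. ATP synthase had the largest share of called genes, 8 of 10, with a median of -0.99, followed by 6 of 11 TCA cycle genes (-0.53), 3 of 10 in complex III and cytochrome c (-0.40), 2 of 6 in complex IV (-0.54) and 1 of 4 in complex II (-0.23).

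In ATP synthase the called genes included parts of the central stalk (ATP3, ATP15, ATP16), of the stator (ATP5, ATP7) and small membrane subunits (ATP17, ATP18, ATP20). ATP15 had 408 and 486 RPKM with CMK, against 977 and 987 RPKM with DMSO, and the groups did not overlap (log2 change -1.41 ± 0.32, adjusted p = 0.0101). ATP7 had 95.1 and 127.5 RPKM with CMK, against 181 and 261 RPKM with DMSO (log2 change -1.26 ± 0.24, adjusted p = 0.00589). ATP18 had 494 and 459 RPKM with CMK, against 752 and 906 RPKM with DMSO (log2 change -1.10 ± 0.24, adjusted p = 0.0097). The catalytic alpha subunit ATP1 (-0.67 ± 0.28, adjusted p = 0.076) and the stator subunit ATP4 (-0.36 ± 0.28, adjusted p = 0.303) were not called.

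In the TCA cycle IDH2 (YOR136W), a subunit of NAD-dependent isocitrate dehydrogenase, had the smallest p. It had 142.5 and 132 RPKM with CMK, against 222 and 205 RPKM with DMSO and 254 and 217 RPKM with 1-NAPP-1, and CMK did not overlap with either (log2 change against DMSO -0.93 ± 0.17, adjusted p = 0.00446). IDH1, its partner subunit, changed by -0.81 ± 0.20 (adjusted p = 0.016). LPD1 had 198 and 168 RPKM with CMK, against 326 and 343 RPKM with DMSO (log2 change -1.16 ± 0.26, adjusted p = 0.0107). MDH1, LSC1 and KGD2 were also called, at -0.89, -0.76 and -0.53. ACO1 (0.29 ± 0.30), CIT1 (-0.03 ± 0.26) and FUM1 (-0.18 ± 0.19) were not. In complex III and complex IV, QCR7 (-0.93 ± 0.26), COR1 (-0.72 ± 0.21), QCR6 (-0.74 ± 0.22), COX8 (-0.83 ± 0.20) and COX12 (-0.59 ± 0.19) were called, and in complex II SDH3 (-0.58 ± 0.19). SDH1 and SDH2, the catalytic subunits of complex II, had 0.13 and 0.16.

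The size of this fall came mainly from the 5 µM set. At 5 µM the median of 40 genes (without QCR9) was -1.03 between the kin28is CMK and DMSO libraries, and at 2 µM it was -0.27. ATP synthase had medians of -1.42 at 5 µM and -0.56 at 2 µM, with 10 and 9 of 10 genes below 0. The 5 µM DMSO libraries themselves were high in these genes: medians against them were -0.31 for kin28is 1-NAPP-1, -0.47 for WT CMK and -0.52 for WT 1-NAPP-1, against 0.07, 0.02 and 0.07 at 2 µM in that order. ATP synthase was low against the 5 µM DMSO libraries in these too, with medians of -0.33 for kin28is 1-NAPP-1, -0.66 for WT CMK and -0.65 for WT 1-NAPP-1. The WT DMSO library without 4tU was also lower than the WT DMSO library with it at 5 µM, by a median log2 ratio of -0.71 over the 40 genes and -1.05 over ATP synthase. The part of the DMSO libraries in the fall was not tested. Without kin28is CMK replicate 2 the count was 1, and without kin28is DMSO replicate 2 it was 3. The 1 gene was IDH2, whose adjusted p was 0.0454 and 0.0476 in those fits.

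**Figure D4:**
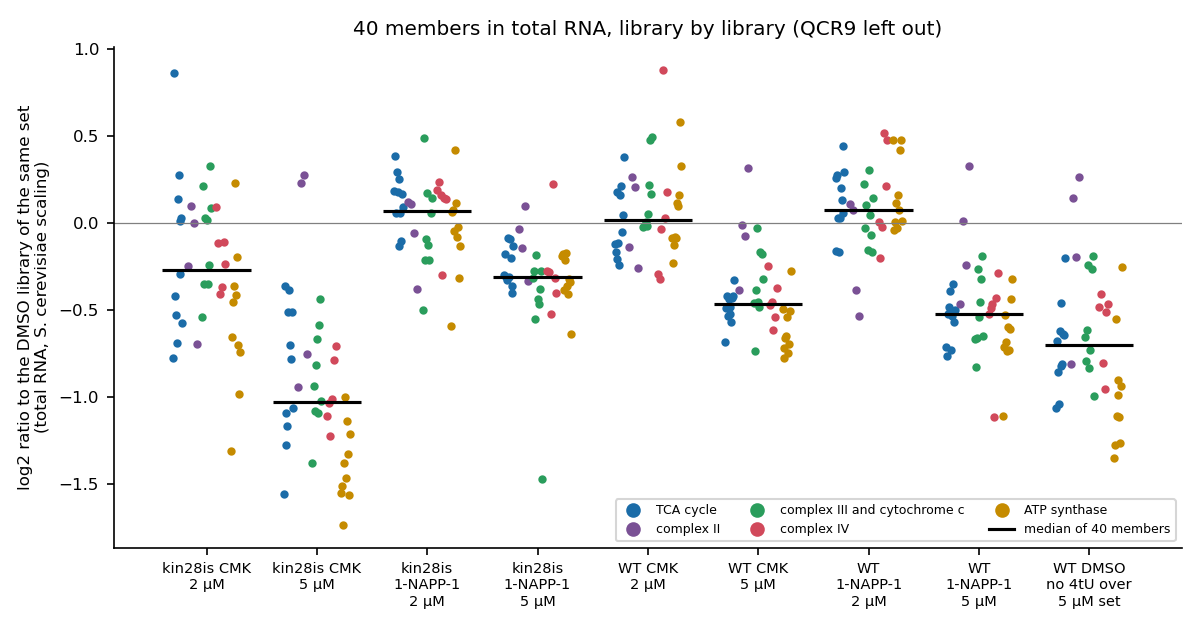
Relative log2 ratio of each total RNA library to the DMSO library of the same strain and set, 40 genes per column coloured by role, with the median as a bar, and last the WT DMSO library without 4tU over the 5 µM set's WT DMSO library. The kin28is CMK columns have medians of -0.27 and -1.03, and the other 5 µM columns with an inhibitor lie between -0.31 and -0.52.

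Against 1-NAPP-1 the fold change does not rest on those DMSO libraries, although they enter the shared estimate of spread. The relative fall of total RNA was then called for 7 of 41 genes, where 12.2% of genes were called lower and 3.07% higher. They were IDH2 (-0.97 ± 0.17), LPD1 (-1.09 ± 0.26), ATP18 (-1.02 ± 0.24), MDH1 (-0.87 ± 0.23), ATP7 (-0.93 ± 0.24), IDH1 (-0.79 ± 0.20) and ATP5 (-0.82 ± 0.24), all of them also called against DMSO. The median was -0.43 against 0.04 over all genes. The count was 0 with no term for the replicate set and ranged from 0 to 14 as single libraries were left out, with 0 without kin28is CMK replicate 2 and without either 1-NAPP-1 library, 4 without either WT CMK library, 12 without kin28is CMK replicate 1 and 14 without either kin28is DMSO library. Both comparisons share the CMK libraries. In WT cells 0 members were called on the relative scale with CMK (median -0.24, and 0.0% of genes were called) or with 1-NAPP-1 (median -0.24). The test of the kin28is minus WT difference in CMK response called 0 members with edgeR on that scale, 5 of them had an unadjusted p under 0.05, and 0.0192% of genes were called lower. Its median was -0.39 against 0.01 over all genes, so a response particular to kin28is was not shown. The interaction per S. pombe RNA had a median of -0.59 against -0.15, 1 member at an unadjusted p under 0.05, 0 called by DESeq2, and 0.44% of genes called lower by edgeR. For 1-NAPP-1 against DMSO in kin28is cells, for each agent in WT cells and for kin28is against WT under DMSO, total RNA gave 0 called members and 0 with an unadjusted p under 0.05, with 0 called by DESeq2 and 0.0% of genes called.

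In WT cells the labelled RNA could be set against total RNA, a comparison of each gene's nascent share with its total share. These genes lay lower in the nascent than in the total fraction. Of 40 genes tested, 21 were called lower in nascent RNA and 0 higher, where the shares over 5198 genes were 26.7% lower and 29.1% higher. The median log2 ratio was -0.39 against 0.02 over all genes. ATP15 had 381, 184, 483, 347.5, 311 and 252 RPKM in nascent CMK, 1-NAPP-1 and DMSO libraries (replicates 1 and 2 of each), against 683, 1306, 979, 863, 719 and 1504 RPKM in total RNA, and the fractions did not overlap (log2 ratio -1.66 ± 0.22, adjusted p = 6.57e-05). LPD1 ranged from 105 to 147 RPKM in nascent RNA, against 235 to 317 RPKM in total RNA (log2 ratio -1.19 ± 0.11, adjusted p = 5.18e-06). LSC2, a succinyl-CoA ligase subunit, ranged from 31.1 to 44.1 RPKM in nascent RNA, against 66.5 to 96.9 RPKM in total RNA (log2 ratio -1.25 ± 0.12, adjusted p = 5.38e-06). FUM1 had a log2 ratio of -1.27 ± 0.13 (adjusted p = 9.33e-06). Again the fractions did not overlap in these genes.

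Roles differed in how many genes were called: 7 of 10 in ATP synthase (median -0.57), 5 of 6 in complex IV (-0.52), 7 of 11 in the TCA cycle (-0.40), 1 of 4 in complex II (-0.28) and 1 of 9 in complex III and cytochrome c (-0.24). CYT1 (0.02 ± 0.11), RIP1, the Rieske iron-sulfur subunit (0.04 ± 0.16), and SDH2 (0.20 ± 0.10) were the genes above 0, none called. Across 40 genes the nascent-to-total ratio in WT and the relative total RNA change with CMK in kin28is cells had Pearson's r of 0.28 and Spearman's rho of 0.16. With that same total RNA change, log2 coding length had r of 0.41 and rho of 0.36. The relative nascent change had r of 0.40 and rho of 0.37 with it. The genes share libraries within each value and are not independent replicates.

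**Figure D5:**
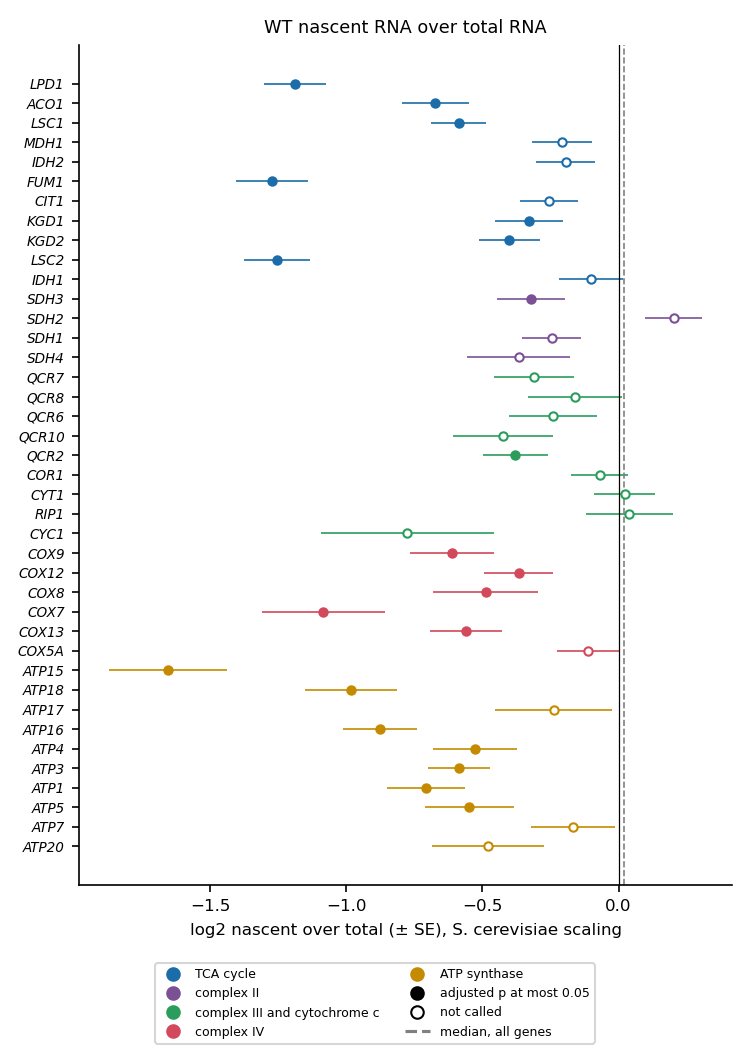
Log2 ratio of nascent to total RNA in WT cells for 40 genes by role, fitted over 6 library pairs with SE, filled where called. All points but 3 lie left of 0, and ATP15 lies lowest at -1.66.

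Genes around the set are given beside the shares of all genes: after CMK 71.4% were lower in nascent RNA per S. pombe RNA, 2.4% were higher in relative nascent RNA, and 20.4% were lower and 18.2% higher in relative total RNA. No list was tested against the members. Of 12 isozymes and paralogs of members, 4 were called lower in nascent RNA per S. pombe RNA after CMK, and on the relative scale 3 were higher in nascent RNA: COX5B, the hypoxic form of COX5A (log2 change 2.49 ± 0.41), CIT2, the peroxisomal citrate synthase (1.46 ± 0.33), and CIT3 (2.71 ± 0.69). In the 5 µM nascent CMK libraries CIT3 had 12, 17 and 19 reads, COX5B 37, 31 and 51, and CIT2 371, 425 and 938. At 2 µM nascent COX5B was lower with CMK (33.3 RPKM, against 42.5 RPKM with DMSO). There CIT3 (3.74 against 2.73 RPKM) and CIT2 (280 against 160 RPKM) were higher. In relative total RNA 6 of the 12 isozymes and paralogs were higher and 1, MDH3, the peroxisomal malate dehydrogenase, lower (-1.37 ± 0.22). Of 6 glyoxylate cycle and gluconeogenesis genes, 5 were higher in relative total RNA, with a median log2 change of 2.20, among them ICL1, isocitrate lyase (2.01 ± 0.43), and MLS1, malate synthase (2.68 ± 0.83). MLS1 had 261 and 251 reads with CMK, against 50 and 11 reads with DMSO, in libraries of unlike depth. In RPKM MLS1 was at 25.0 (2 µM) and 57.98 (5 µM) with CMK, against 8.989 and 1.357 with DMSO. The 5 µM DMSO library was low in MLS1 and ICL1 against 1-NAPP-1 too. There 1-NAPP-1 gave 10.58 RPKM of MLS1 and 22.54 RPKM of ICL1, against 1.357 and 6.626 RPKM with DMSO. At 2 µM these were 9.519 and 13.57 RPKM, against 8.989 and 11.8 RPKM. The part of the 5 µM DMSO library in these calls was not tested. Of 12 respiratory gene regulators 9 were lower in nascent RNA per S. pombe RNA, ADR1 (-2.59 ± 0.51) with the smallest p, and in relative total RNA 2 were higher, RTG3 (0.61 ± 0.17) and CAT8 (1.94 ± 0.58).

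Of 17 genes that feed electrons or carbon into the chain 10 were lower in nascent RNA per S. pombe RNA, MPC1 of the mitochondrial pyruvate carrier among them (-2.53 ± 0.61), and in relative total RNA 5 were lower and 1 higher. NDE1, the external NADH dehydrogenase, changed by -1.09 ± 0.19 and PET9, the main ADP/ATP carrier, by -0.85 ± 0.23. Of 5 further ATP synthase subunits and regulators 4 were lower in nascent RNA and 3 in relative total RNA (TIM11 -0.89, STF2 -1.56, ATP19 -0.87). Of 39 assembly factors and translational activators 26 were lower and 1 higher in nascent RNA per S. pombe RNA. OXA1, the inner membrane insertase, changed by -3.25 ± 0.68, and CMC1 by 3.43 ± 0.53. Nascent CMC1 had 10580, 8371 and 2645 RPKM with 5 µM CMK, against 244 and 203 RPKM with DMSO and 44150 and 687 RPKM with 1-NAPP-1. The highest value was in the shallowest library. At 2 µM nascent CMC1 had 173.5 RPKM with CMK, against 181 RPKM with DMSO. In total RNA CMC1 had 91.6 and 375 RPKM with CMK, against 166 and 305 RPKM with DMSO. In relative total RNA 6 of the 39 were lower and 4 higher.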

How the data were processed

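The deposited values are raw read counts, 1 whole number per gene and library, with S. cerevisiae and S. pombe genes in 1 table of 34 libraries. Tools in the submitters' processing notes are HTSeq 0.6.0, STAR 2.3.0 and CASAVA 1.8.2, with sacCer3 as the build. No source used here says if counting was by strand, so antisense reads may be included. No other gene of the RefSeq annotation overlapped a member.

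Counts were tested with edgeR 4.0.16 in R 4.3.3 (glmQLFit, glmQLFTest) after filterByExpr with a minimum count of 10. Library sizes were S. pombe totals times TMM factors over S. pombe genes, or S. cerevisiae totals and genes for relative values. Nascent tests used the 10 libraries of the 5 µM set in 6 groups with no replicate term, leaving 4 residual degrees of freedom. Total RNA tests used 12 libraries with a term for the set, which is the replicate number; the labels tie that number to the dose. WT nascent and total libraries were compared with a term for the library pair. The kin28as libraries, those without 4tU and the pathway lists as a whole were not tested. WT nascent groups, with 1 library each at 5 µM, were tested with the spread of the kin28is groups. Alternatives were DESeq2 1.42.0, other scalings and filters, a replicate block, the 16 libraries of both sets and leaving out each library. The alternatives run on relative values were chosen after seeing the data. The scripts were tested on simulated data. Libraries of 1 group all differed by more than counting error (chi-square over its degrees of freedom 5.86 or more). RPKM used coding lengths from RefSeq. Promoter sequences were read from the RefSeq genome R64, the same assembly as sacCer3, by coordinates of the start codon.

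The members and lists were chosen with earlier results of these data known. Any member could be named. Values per library were given for the highest and the most significant member of each role, the 3 largest and 3 smallest nascent changes, and up to 4 called members of each other comparison. From each pathway list up to 3 called genes with the smallest p in nascent RNA could be named. CIT1 and the genes named from lists in other comparisons were chosen after their values were seen.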

Additional observations from a re-analysis of the deposited data

Results flagged for a closer look

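In the 4 nascent kin28is CMK libraries, the median level of the members per 1000000 S. pombe reads was 1765 in replicate 1, the 2 µM library, against 24.95 to 50.2 in the 5 µM libraries. This gap was larger than Dixon's limit for 4 values. MDH1 stood apart in the same way, with 269 RPKM in replicate 4, against 209 to 214 RPKM in the other 3 libraries. With 20 quantities examined in this group, chance alone gives about 1 such gap in 20.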

How the results depend on the processing

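The nascent fall after CMK in kin28is cells was called for 18 genes with a replicate block, 0 with all 16 libraries of both sets, 0 with those and the block, 31 with DESeq2 and 1 (higher) with S. cerevisiae scaling. That scaling takes out the general fall, so values near the median of all genes lie around 0, among them COX9 (0.091), LPD1 (0.17) and SDH3 (0.076). Against 1-NAPP-1 the count was 1 with S. cerevisiae scaling and 0 with all 16 libraries with or without the block, where QCR6 (0.12), KGD1 (0.85), ATP7 (0.77) and CYT1 (0.77) turned their sign. DESeq2 called 6 for the nascent difference in CMK response and 2 for kin28is against WT under DMSO. For relative nascent RNA, DESeq2 called 2 against each of DMSO and 1-NAPP-1, the block 2 against DMSO, and all 16 libraries 0 in both with or without the block. In total RNA, CMK against DMSO gave 3 with DESeq2 and 20 with S. cerevisiae scaling, and CMK against 1-NAPP-1 gave 7 with either, 0 on S. pombe totals without TMM and 0 with no replicate block. Relative total RNA gave 12 against DMSO with no replicate block, and against 1-NAPP-1 0 with no block and 13 with DESeq2. The cause of these shifts was not tested, apart from the removal of the general fall by S. cerevisiae scaling.

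Leaving out single libraries gave 5 to 31 (nascent CMK against DMSO), 9 to 34 (against 1-NAPP-1), 0 to 2 (difference in response) and 0 to 11 (strains under DMSO). In total RNA it gave 0 to 4, 0 to 7 and 0 to 1, in relative nascent RNA 0 to 2 for both, in relative total RNA 1 to 24 and 0 to 14, and in WT nascent against total RNA 18 to 22. Other settings left 81 counts within 1.5 times the reported one and moved 25 further. Omission of single libraries left 179 counts within that limit and moved 40. Of values of single members, other settings left 95 the same, made 55 weaker and reversed 7. The counts in this section are given without shares over all genes.

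In the nascent 5 µM set, same-numbered libraries deviated together (r over 0.1) in 3 of 5 distinct pairs (r of 0.0431 to 0.277). Over both doses, where the number also carries the dose, 29 of 30 pairs did. The check does not settle if the nascent numbers pair libraries, and the reported nascent fit has no replicate term. In total RNA 10 of 15 pairs deviated together (lowest r -0.169). The term for the replicate set was kept there because the labels tie the number to the dose, not because of this check. Depth limits QCR9, and background limits the lowest nascent levels.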
